A study of Mus musculus with 6 samples.

Results

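The genes described here encode amino acid and neurotransmitter transporters of the solute carrier families Slc1, Slc3, Slc6, Slc7, Slc36, Slc38 and Slc43. They were chosen by symbol, from probe sets that name a single gene, and the glial glutamate transporters Slc1a2 and Slc1a3 were left out. This gave 62 genes of the 19938 that had a probe set of their own. Where a gene had more than 1 probe set, the brightest by its 6-array mean stood for it. Slc6a19os and Slc7a6os entered by their symbols only, because they are opposite-strand genes and not carriers, and without them 60 genes remain.

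RNA came from neurospheres, floating spheres of neural stem and progenitor cells, grown from lateral ventricle wall tissue that was taken from outbred CD1 mice aged 4 to 6 weeks. The cells carried either a pCMMP retroviral vector with Bmi1, a Polycomb group gene, or the same vector without an insert. All were sorted on eGFP and grown at clonal density, with 2000 cells per well, in medium with EGF and FGF. Each of the 3 Bmi1 overexpression and 3 empty vector control samples was an independent culture according to the design text and was read on 1 Affymetrix Mouse Gene ST 1.0 array from 300 ng of total RNA, but whether the cultures came from separate mice is not stated in the sources used here. The labels name unflagged Bmi1 and the paper's own text Bmi1-FLAG. The label field for the sample source names the opposite group on all 6 arrays, and the titles, transduction and genotype fields, which name 1 and the same group for each array, were followed. If the source field were right instead, every difference given here would change its sign.

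Carriers of the Slc1 and Slc6 families use the sodium gradient to bring glutamate, neutral amino acids, GABA, glycine, monoamines, taurine or creatine into the cell. Light chains of the Slc7 family exchange amino acids and work only when bound to a heavy chain of the Slc3 family. Slc38 carriers move glutamine and other small neutral amino acids, some Slc36 carriers are driven by protons and Slc43 carriers facilitate diffusion of large neutral amino acids. In the brain these proteins clear transmitters, pass glutamine between glia and neurons and supply amino acids for protein synthesis and growth signalling.

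Values are expression levels on the log2 scale made by robust multi-array average (RMA), and each difference is Bmi1 overexpression minus empty vector. Differences were tested with limma, adjusted over all 35557 probe sets, and a gene is said to have risen or fallen only where its adjusted p was under 0.05. The probe set of Bmi1 itself read 9.18, 8.36 and 8.42 on the Bmi1 arrays and 7.70, 8.40 and 8.31 on the empty vector arrays, so it did not separate the groups (difference 0.52, adjusted p = 0.38 from limma). Of 13 markers of neural stem cells and progenitors, Prom1, Hes5, Cd9 and Sox9 rose (differences of 1.58, 1.05, 0.69 and 0.62), or 30.8% against 7.35% of all genes. Of the 13, 12 had a mean of 6 or more, a range in which 12.4% of all genes passed. The other 9 did not pass, among them Nes, with means of 9.64 on the Bmi1 arrays and 9.69 on the empty vector arrays. The difference was above 0 for 9 of the 13 and below 0 for 4. Among the 4 were Olig2 and Egfr, lower on every Bmi1 array (differences of -0.19 and -0.14). Over all probe sets, 2 arrays of the same group correlated at 0.991 to 0.993 and 2 arrays of different groups at 0.985 to 0.987. Levels of different probe sets are not comparable with each other, the table has no detection calls, and RMA compresses differences of dim probe sets.

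Of the 62 genes, 6 rose and 3 fell, and the other 53 did not pass the test. The genes that passed are 14.5% of the 62, against 7.35% of all 19938 genes. Split by direction, 2.98% of all genes rose and 4.37% fell. Those that rose were Slc6a17, Slc1a1, Slc6a9, Slc1a5, Slc6a6 and Slc43a1, and those that fell were Slc6a15, Slc6a4 and Slc7a4. The groups did not overlap for 20 of the 62 genes, or 32.3%, against 31.3% of all genes, with 15 higher on the Bmi1 arrays (15.3% of all genes were) and 5 lower (15.9% of all genes were). The difference was above 0 for 45 genes and below 0 for 17, with a median of 0.08 against 0.013 over all genes. The median absolute difference was 0.12 for the 62 genes and 0.114 over all genes.

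**Figure D1:**
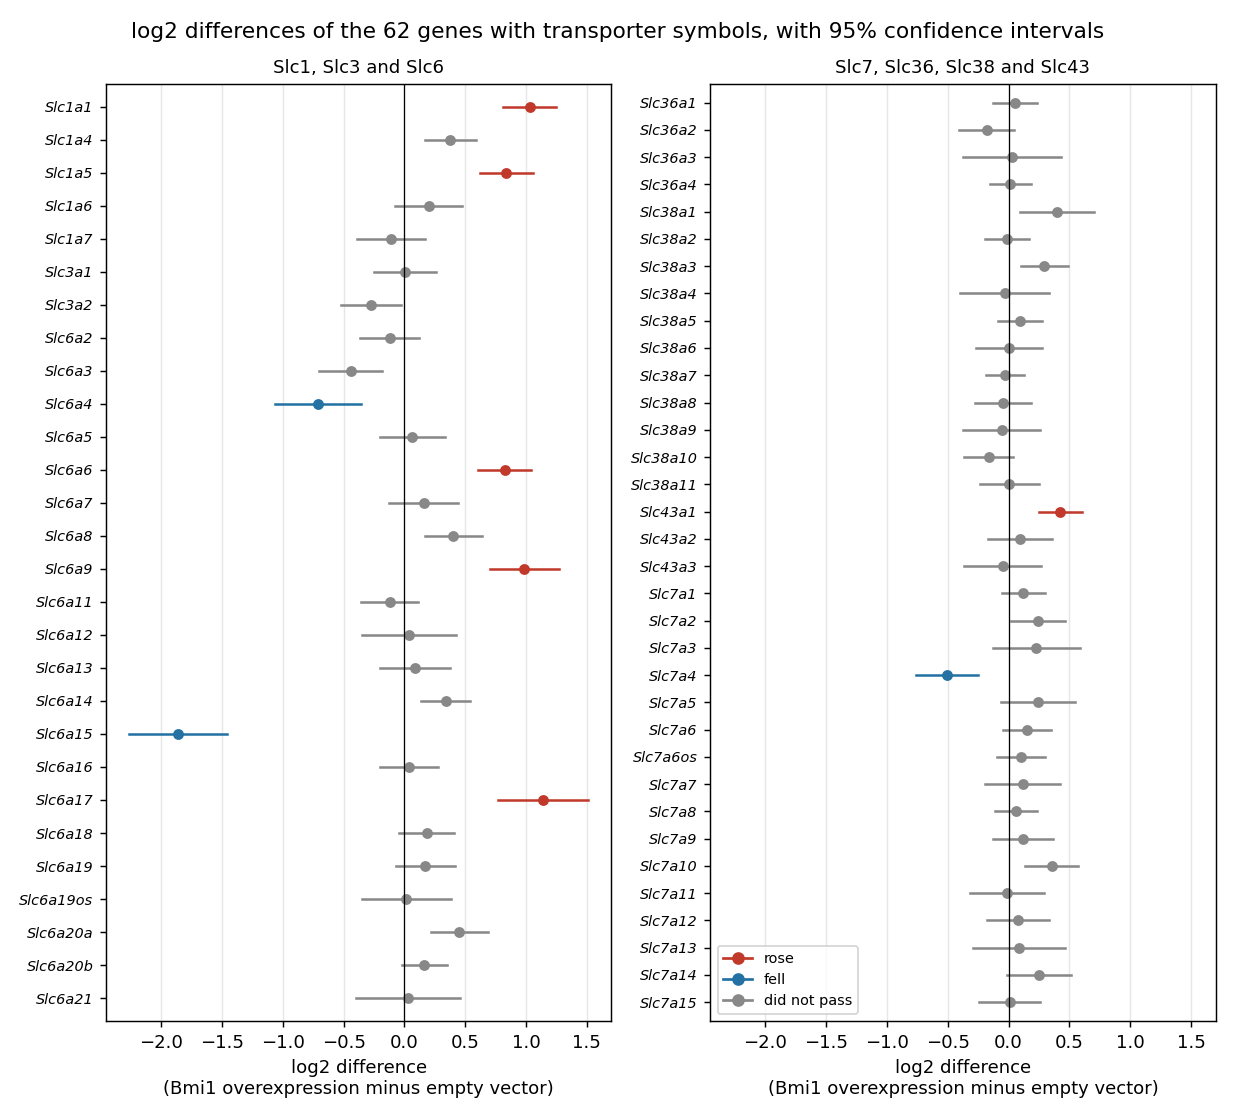
Log2 differences (x axis, Bmi1 overexpression minus empty vector) of the 62 genes (y axis), with points for the difference and bars for its 95% confidence interval from limma on 3 arrays per group. Red marks the 6 genes that rose, blue the 3 that fell and grey the 53 that did not pass, and Slc6a15 at -1.86 and Slc6a17 at 1.14 lie farthest from 0.

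Genes that passed were unevenly spread over the levels. Of the 20 genes with a mean level of 6 or more, 4 rose and 0 fell, and 12.4% of all genes in that range passed. Of the 15 with a mean from 4 to 6, 2 rose and 2 fell, against 8.36% of all genes there. Among the 27 genes with a mean under 4, Slc6a15 alone passed, and 0.866% of all genes in that range did.

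The largest rise was that of Slc6a17, which encodes a carrier that loads neutral amino acids into synaptic vesicles. Its probe set (10501104) read 6.19, 5.97 and 6.46 on the Bmi1 arrays and 5.29, 4.97 and 4.96 on the empty vector arrays. Every Bmi1 array was therefore above every empty vector array, by a mean of 1.14 (standard error 0.15) or 2.20-fold, with an adjusted p of 0.011 from limma. The call was narrowly lost without empty vector replicate 2 or 3 (adjusted p = 0.051 and 0.052 from limma).

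Slc1a1 encodes the glutamate and cysteine carrier EAAC1, which is mainly neuronal in the adult brain. It read 5.40, 5.55 and 5.69 on the Bmi1 arrays and 4.53, 4.54 and 4.49 on the empty vector arrays (probe set 10462313). The groups stood well apart, with a difference of 1.03 (standard error 0.09) or 2.04-fold, and the adjusted p of 0.0023 from limma was the lowest among the 62 genes. With 3 arrays against 3, the smallest p that an exact permutation test allows for any such gene is 0.1.

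Slc6a9 encodes GlyT1, a glycine carrier found mainly in glia. Its levels were 8.92, 9.25 and 9.23 on the Bmi1 arrays and 8.27, 8.06 and 8.10 on the empty vector arrays (probe set 10507500). The groups did not overlap, with a difference of 0.99 (standard error 0.12) or 1.98-fold and an adjusted p of 0.0068 from limma.

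Slc1a5, the glutamine exchanger ASCT2, read 7.27, 7.46 and 7.17 on the Bmi1 arrays and 6.44, 6.44 and 6.49 on the empty vector arrays (probe set 10550332). The empty vector arrays were nearly equal and all Bmi1 arrays were above them, by a mean of 0.84 (standard error 0.09) or 1.79-fold. Slc6a6, the taurine carrier, read 6.71, 6.68 and 6.70 on the Bmi1 arrays and 5.80, 5.77 and 6.04 on the empty vector arrays (probe set 10540122). Here the Bmi1 arrays were nearly equal and all were above the empty vector arrays, by a mean of 0.83 (standard error 0.09) or 1.77-fold. Both had an adjusted p of 0.0052 from limma.

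Slc43a1, the facilitated carrier LAT3 of branched-chain amino acids and phenylalanine, had the smallest rise. It read 6.66, 6.79 and 6.68 on the Bmi1 arrays and 6.37, 6.24 and 6.25 on the empty vector arrays (probe set 10473367). The groups were apart by 0.43 on average (standard error 0.07) or 1.34-fold, with an adjusted p of 0.026 from limma. This call did not survive the omission of any single array, with an adjusted p between 0.053 and 0.10 from limma.

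**Figure D2:**
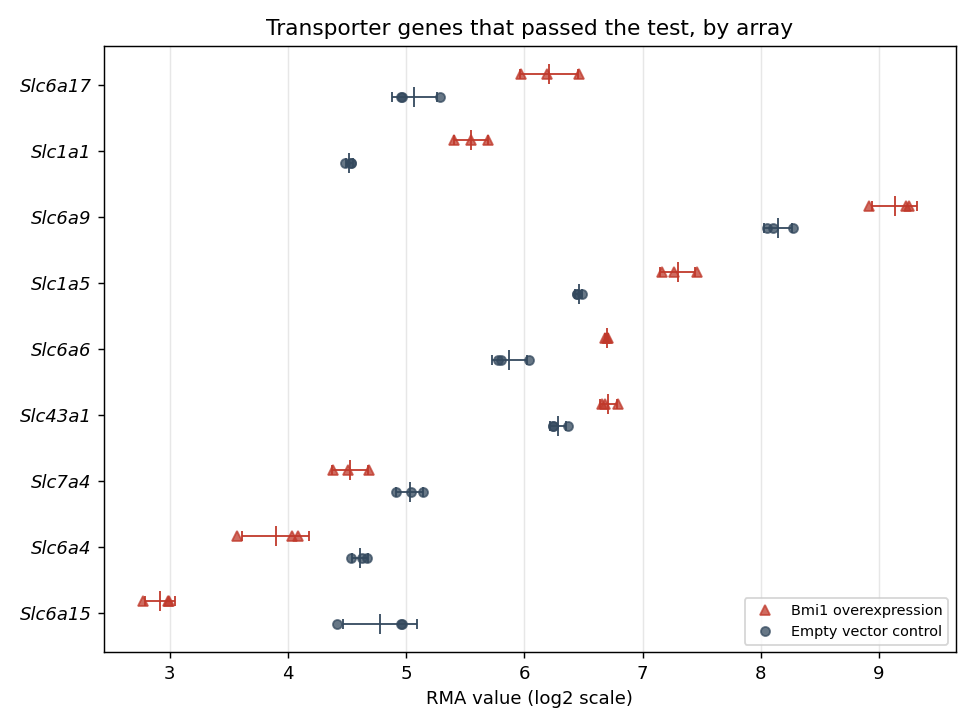
Expression levels by RMA in log2 units (x axis) of the 9 genes that passed the test (y axis), with 1 point per array, triangles for Bmi1 overexpression above circles for empty vector, and bars at each group mean with its SD over the 3 arrays. The groups do not overlap for any of the 9 genes, and Slc6a15 lies between 2.77 and 2.99 on the Bmi1 arrays and between 4.42 and 4.97 on the empty vector arrays.

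The largest change in either direction was the fall of Slc6a15, which encodes a sodium-dependent carrier of branched-chain amino acids and proline found mainly in neurons. It read 2.77, 2.99 and 2.99 on the Bmi1 arrays and 4.95, 4.42 and 4.97 on the empty vector arrays (probe set 10366163). The groups were far apart, with a difference of -1.86 (standard error 0.17), 3.63-fold lower on the Bmi1 arrays, and an adjusted p of 0.0027 from limma. Its levels on the Bmi1 arrays were near the low end of the table, so the fold is approximate. In such bulk samples, fewer cells that express a gene and less RNA per cell cannot be told apart.

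Slc6a4, the serotonin transporter, read 4.04, 3.57 and 4.09 on the Bmi1 arrays and 4.63, 4.67 and 4.54 on the empty vector arrays (probe set 10378816). All Bmi1 arrays were lower, replicate 2 most of all, and the difference was -0.71 (standard error 0.15) with an adjusted p of 0.045 from limma. Slc7a4, a sequence relative of the cationic amino acid carriers, read 4.38, 4.51 and 4.69 on the Bmi1 arrays and 5.14, 4.91 and 5.04 on the empty vector arrays (probe set 10438189). Its groups did not overlap either, with a difference of -0.50 (standard error 0.11) and an adjusted p of 0.048 from limma. Both calls were near the threshold. The fall of Slc6a4 passed without Bmi1 replicate 2 but not on omission of any of the other arrays (adjusted p = 0.065 to 0.14), and that of Slc7a4 passed without Bmi1 replicate 3 but not without any of the others (adjusted p = 0.085 to 0.14).

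Promoter sequences were taken from RefSeq (GRCm38.p6), from 250 bases before to 50 bases after a gene's start and read along the gene's strand. Of the 62 genes, 45 had 66 such windows. Bmi1 belongs to a Polycomb complex, and Polycomb complexes are known to occupy many promoters rich in CG dinucleotides, so these were counted. The median number of CG in a window was 10 for the 66 windows and 7 over all 32851 windows of the table. Among the genes that passed, 5 had a total of 8 windows, with between 3 and 32 CG and a median of 20. The windows of Slc6a17 and Slc1a1, which rose, and of Slc6a4, which fell, are printed because each is CG-rich and the genes moved in opposite directions, with each CG in capitals. They are chr3:107517969-107518268 on the minus strand with 26 CG, chr19:28834885-28835184 on the plus strand with 32 CG and chr11:76998347-76998646 on the plus strand with 28 CG. As many or more CG were found in 16.9%, 9.52% and 14.2% of all windows. Slc6a17 has a further window with 3 CG that is not shown. A CG count is a property of the sequence, and binding or methylation of these promoters was not analysed here.
Slc6a17: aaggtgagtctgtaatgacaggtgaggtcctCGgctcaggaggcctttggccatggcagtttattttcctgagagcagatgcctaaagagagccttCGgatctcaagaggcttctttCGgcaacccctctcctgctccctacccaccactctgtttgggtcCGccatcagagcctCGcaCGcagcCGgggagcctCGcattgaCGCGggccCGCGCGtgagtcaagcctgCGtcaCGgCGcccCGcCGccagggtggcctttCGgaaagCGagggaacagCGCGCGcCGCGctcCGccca
Slc1a1: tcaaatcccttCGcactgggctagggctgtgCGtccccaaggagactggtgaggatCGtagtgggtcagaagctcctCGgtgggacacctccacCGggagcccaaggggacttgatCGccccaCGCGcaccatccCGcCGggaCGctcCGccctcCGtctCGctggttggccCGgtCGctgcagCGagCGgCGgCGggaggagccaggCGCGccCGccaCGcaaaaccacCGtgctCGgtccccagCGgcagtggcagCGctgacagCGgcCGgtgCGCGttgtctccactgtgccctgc
Slc6a4: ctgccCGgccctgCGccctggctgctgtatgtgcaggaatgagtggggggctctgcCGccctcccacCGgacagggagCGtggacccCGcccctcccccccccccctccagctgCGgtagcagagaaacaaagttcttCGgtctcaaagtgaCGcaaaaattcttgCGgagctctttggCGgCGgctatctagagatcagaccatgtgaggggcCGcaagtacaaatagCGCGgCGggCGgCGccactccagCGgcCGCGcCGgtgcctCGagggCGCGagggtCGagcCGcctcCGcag

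The 9 genes that passed came from 4 of the 7 families, most of which are too small for their shares to be read against the 7.35% of all genes. Of 5 Slc1 genes 2 rose, and of 21 Slc6 genes 3 rose and 2 fell. Of 16 Slc7 genes 1 fell, and of 3 Slc43 genes 1 rose. No call was made among 2 Slc3 genes, 4 Slc36 genes and 11 Slc38 genes.

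Among the Slc1 genes, Slc1a4, the serine and alanine exchanger ASCT1, read 8.47, 8.58 and 8.75 on the Bmi1 arrays and 8.23, 8.20 and 8.24 on the empty vector arrays. The groups did not overlap, but the difference of 0.38 (95% confidence interval 0.17 to 0.59) did not pass (adjusted p = 0.065 from limma). The glial carriers left out of the set are glutamate carriers of the same family as Slc1a1. Slc1a2 averaged 7.67 ± 0.23 on the Bmi1 arrays and 7.12 ± 0.11 on the empty vector arrays (SD, n = 3 each), a difference of 0.55 (adjusted p = 0.072 from limma). Slc1a3 averaged 10.46 ± 0.11 on the Bmi1 arrays and 10.76 ± 0.06 on the empty vector arrays (SD, n = 3 each), a difference of -0.31 (adjusted p = 0.10 from limma).

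Slc6a11, Slc6a12 and Slc6a13 did not pass. Slc6a11, the GABA transporter GAT3 of astrocytes, read 11.01, 11.20 and 11.28 on the Bmi1 arrays and 11.38, 11.19 and 11.29 on the empty vector arrays. The groups overlapped, with a difference of -0.12 and a 95% confidence interval of -0.36 to 0.12. Slc6a13, which encodes GAT2, and Slc6a12, the betaine and GABA carrier, neighbour each other on chromosome 6 and had differences of 0.09 and 0.04, with overlapping groups. Slc6a8, the creatine carrier, read 6.93, 7.05 and 7.19 on the Bmi1 arrays and 6.78, 6.59 and 6.60 on the empty vector arrays, a difference of 0.40 (adjusted p = 0.072 from limma) although the groups did not overlap.

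Of the remaining Slc6 genes, Slc6a20a came closest to a call, ahead of Slc6a14 and Slc6a3. Slc6a20a, a proline carrier, read 4.36, 4.50 and 4.19 on the Bmi1 arrays and 3.90, 3.96 and 3.84 on the empty vector arrays, a difference of 0.45 (adjusted p = 0.052 from limma). Its neighbour Slc6a20b on chromosome 9, a close paralog, had a difference of 0.16 (adjusted p = 0.30 from limma), and which of these paralogs each probe set reads was not tested. Slc6a20a passed without Bmi1 replicate 3 (adjusted p = 0.042 from limma). Slc6a3, the dopamine transporter, read 4.60, 4.45 and 4.78 on the Bmi1 arrays and 5.05, 4.94 and 5.16 on the empty vector arrays. All Bmi1 arrays were lower, but the difference of -0.44 missed the threshold (adjusted p = 0.076 from limma). Slc6a14, a broad carrier of neutral and cationic amino acids, was dim in both groups, with means of 2.32 on the Bmi1 arrays and 1.98 on the empty vector arrays, and its groups did not overlap (adjusted p = 0.076 from limma).

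None of the 10 light chain genes and neither heavy chain gene passed the test. Slc3a2, the heavy chain of CD98, read 10.05, 10.07 and 10.36 on the Bmi1 arrays and 10.38, 10.45 and 10.47 on the empty vector arrays. Every Bmi1 array was below every empty vector array, by a mean of 0.27 on the log2 scale (95% confidence interval of the difference -0.52 to -0.03, adjusted p = 0.20 from limma). Its partner Slc7a5, the leucine exchanger LAT1, read 9.09, 9.25 and 9.55 on the Bmi1 arrays and 9.12, 9.06 and 8.98 on the empty vector arrays. These overlapped, with a difference of 0.24 and a 95% confidence interval of -0.06 to 0.55. Slc7a6, the light chain that exchanges cationic for neutral amino acids, had a difference of 0.15 (adjusted p = 0.38 from limma).

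Slc7a11, the cystine and glutamate exchanger xCT, read 5.31, 5.31 and 5.68 on the Bmi1 arrays and 5.57, 5.43 and 5.34 on the empty vector arrays. The groups overlapped, with a difference of -0.01 and a 95% confidence interval of -0.32 to 0.29. Slc7a10, the light chain Asc-1 that carries glycine and D-serine, averaged 4.63 ± 0.02 on the Bmi1 arrays and 4.27 ± 0.15 on the empty vector arrays (SD, n = 3 each), without overlap but short of the threshold (adjusted p = 0.087 from limma). Among the cationic carriers, Slc7a1, the main arginine and lysine carrier of many cells, had a difference of 0.12 (95% confidence interval -0.05 to 0.30). Slc7a2, a related carrier, had a difference of 0.24 (adjusted p = 0.21 from limma).

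None of the 11 Slc38 genes passed. Slc38a1, a glutamine carrier known mainly from neurons, read 8.11, 8.10 and 8.23 on the Bmi1 arrays and 7.65, 7.58 and 8.01 on the empty vector arrays, a difference of 0.40 (adjusted p = 0.15 from limma). Empty vector replicate 3 was the high array of its group, and without it the call passed (adjusted p = 0.047 from limma). Its other probe set had a difference of 0.45 (adjusted p = 0.10 from limma) and did not overlap between the groups either. Slc38a2, the next gene on chromosome 15 and an amino acid-responsive carrier of small neutral amino acids, read 9.57, 9.58 and 9.74 on the Bmi1 arrays and 9.65, 9.62 and 9.66 on the empty vector arrays. Its difference was -0.01, with a 95% confidence interval of -0.19 to 0.17. Slc38a3, the glutamine carrier SNAT3 of astrocytes, read 8.78, 8.91 and 8.92 on the Bmi1 arrays and 8.59, 8.65 and 8.48 on the empty vector arrays. All Bmi1 arrays were higher, with a difference of 0.29 (adjusted p = 0.10 from limma).

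Of the Slc36 and Slc43 carriers that did not pass, Slc36a4, a carrier of proline and tryptophan, averaged 6.53 ± 0.07 on the Bmi1 arrays and 6.52 ± 0.05 on the empty vector arrays (SD, n = 3 each). Slc43a2, the relative LAT4 of Slc43a1, averaged 5.48 ± 0.17 on the Bmi1 arrays and 5.38 ± 0.11 on the empty vector arrays (SD, n = 3 each). The 53 genes that did not pass had differences between -0.44 and 0.45. Over the 62 genes the 95% confidence interval reached a median of 0.24 to either side, so smaller differences could mostly not be told from 0. These intervals are not adjusted for the number of tests, and the adjusted test could miss larger differences. An unadjusted p under 0.05 was found for 19 of the 62 genes, of which 9 passed.

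**Figure D3:**
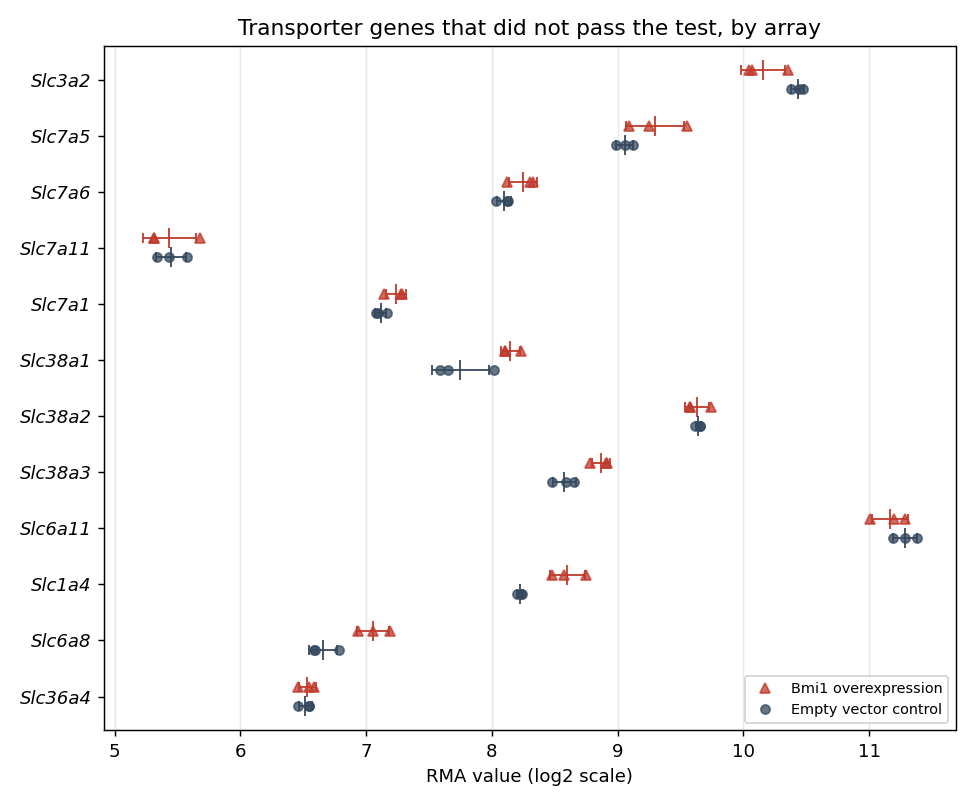
Expression levels by RMA in log2 units (x axis) of 12 genes that did not pass the test, as named in the text (y axis), with 1 point per array, triangles for Bmi1 overexpression above circles for empty vector, and bars at each group mean with its SD over the 3 arrays. The groups overlap for Slc6a11, Slc7a5, Slc7a11 and Slc38a2 and do not overlap for Slc1a4, Slc3a2, Slc6a8, Slc38a1 and Slc38a3.

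When the model was fitted and adjusted on 1 probe set per gene, which changed the variance prior as well as the number of features, 16 of the 62 genes passed, the 9 above and 7 others, and so did 12.7% of all genes. These were Slc1a4, Slc38a3, Slc6a14, Slc6a20a, Slc6a3, Slc6a8 and Slc7a10, each with non-overlapping groups.

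Several genes that make or break down the substrates of these carriers changed as well. For the shares below, 7.35% of all genes passed, and 12.4% of those with a mean of 6 or more. Of 12 genes of cystine, glutathione and taurine metabolism, 2 rose and 1 fell, or 25%. All 3 act in the synthesis of cysteine or taurine, and none of the glutathione genes in the list passed. Over the 12 genes the difference was above 0 for 5 and below 0 for 7. Cdo1, the cysteine dioxygenase that starts taurine synthesis, read 5.93, 5.94 and 5.98 on the Bmi1 arrays and 4.10, 4.03 and 4.32 on the empty vector arrays, a rise of 1.80 (standard error 0.09) or 3.49-fold with an adjusted p of 4.9e-04 from limma. Csad, the decarboxylase of the next step, averaged 7.46 ± 0.13 on the Bmi1 arrays and 7.91 ± 0.05 on the empty vector arrays (SD, n = 3 each), a fall of 0.45 on the log2 scale (adjusted p = 0.037 from limma). Cbs, which makes cystathionine on the way to cysteine, had a difference of 0.62 (adjusted p = 0.047 from limma). Thus Slc6a6 and Cdo1 were higher on all Bmi1 arrays and Csad was lower on all of them. Csad passed without Bmi1 replicate 1 and Cbs without Bmi1 replicate 3, and neither passed without any of the other arrays (adjusted p up to 0.13 for Csad and 0.15 for Cbs). Cbs also did not pass after median centring or quantile normalization, and Csad did not after quantile normalization.

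Of 6 genes of creatine synthesis and use, 1 rose and 2 fell, or 50% of a small list. Gatm, the enzyme of the first step, read 9.80, 9.78 and 9.88 on the Bmi1 arrays and 8.52, 8.63 and 8.80 on the empty vector arrays, a rise of 1.17 (standard error 0.09) or 2.24-fold with an adjusted p of 0.0016 from limma. Gamt, the enzyme of the second step, averaged 7.58 ± 0.13 on the Bmi1 arrays and 8.24 ± 0.13 on the empty vector arrays (SD, n = 3 each), a fall of 0.66 on the log2 scale (adjusted p = 0.017 from limma). Ckb, the brain-type creatine kinase, had a difference of -0.40 (adjusted p = 0.016 from limma). The genes of the pathway thus moved in both directions. The fall of Gamt passed without Bmi1 replicate 3 but not without any other array (adjusted p = 0.051 to 0.065), and that of Ckb did not survive the omission of any array (adjusted p = 0.052 to 0.072).

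For glycine, serine and proline, 1 of 10 genes passed, or 10%, a share close to that of all genes. Amt, a subunit of the glycine cleavage system, read 7.08, 7.03 and 7.06 on the Bmi1 arrays and 7.72, 7.65 and 7.57 on the empty vector arrays, a fall of 0.59 on the log2 scale (adjusted p = 0.0067 from limma). Gldc, another subunit of that system, had a difference of 0.27, which missed the threshold (adjusted p = 0.10 from limma). Slc6a9, the glycine carrier, was thus higher on the Bmi1 arrays and Amt lower.

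Of 11 genes of GABA and glutamate metabolism, 2 rose and 2 fell, or 36.4%. Gad1, which makes GABA, read 6.80, 6.77 and 6.90 on the Bmi1 arrays and 6.13, 6.22 and 6.34 on the empty vector arrays, a rise of 0.59 (adjusted p = 0.011 from limma). Aldh5a1, which acts in the last step of GABA breakdown, rose by 0.46 (adjusted p = 0.020 from limma). Abat, the GABA transaminase before it, averaged 8.24 ± 0.27 on the Bmi1 arrays and 8.77 ± 0.05 on the empty vector arrays (SD, n = 3 each), a difference of -0.53 short of the threshold (adjusted p = 0.088 from limma). Got1, the cytosolic aspartate aminotransferase, read 9.34, 9.33 and 9.35 on the Bmi1 arrays and 9.95, 10.00 and 9.90 on the empty vector arrays, a fall of 0.61 on the log2 scale (adjusted p = 0.0043 from limma). Glul, the glutamine synthetase of astrocytes, had a difference of -0.37 (adjusted p = 0.025 from limma). The call of Gad1 was lost without empty vector replicate 2 (adjusted p = 0.054), that of Aldh5a1 on omission of any array but empty vector replicate 3 or Bmi1 replicate 3 (adjusted p = 0.073 to 0.084), and that of Glul on omission of any single array (adjusted p = 0.052 to 0.098). Abat passed without Bmi1 replicate 3 (adjusted p = 0.017 from limma).

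**Figure D4:**
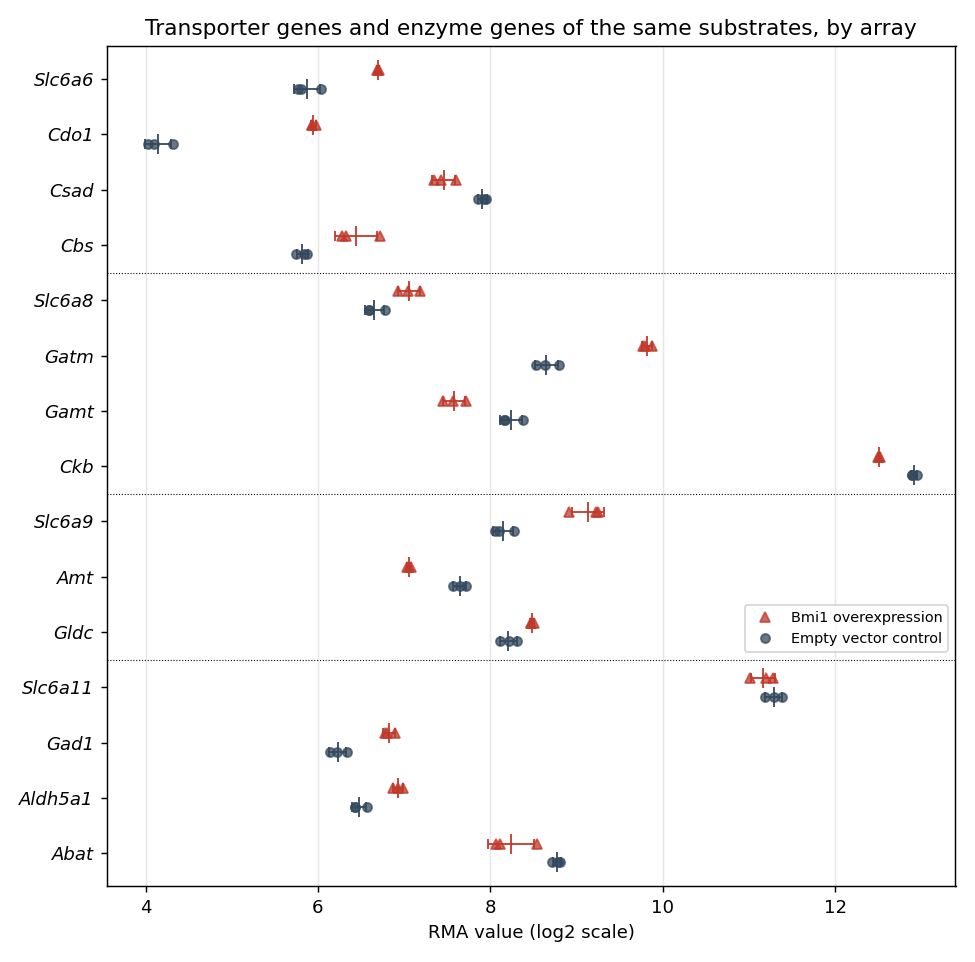
Expression levels by RMA in log2 units (x axis) of 4 carriers, each followed by enzyme genes of its substrate (y axis, blocks from top to bottom for taurine, creatine, glycine and GABA, parted by dotted lines), with 1 point per array, triangles for Bmi1 overexpression above circles for empty vector, and bars at each group mean with its SD over the 3 arrays. Cdo1 and Gatm show the widest gaps, at 5.93 or higher against 4.32 or lower for Cdo1 and at 9.78 or higher against 8.80 or lower for Gatm, whereas Slc6a11 overlaps.

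Of 15 amino acid carriers of other families, Slc25a18 alone passed, or 6.67%, a share close to that of all genes. This mitochondrial glutamate carrier read 8.48, 8.50 and 8.34 on the Bmi1 arrays and 9.55, 9.56 and 9.67 on the empty vector arrays, a fall of 1.15 on the log2 scale (adjusted p = 0.0010 from limma). Of 7 vesicular transmitter transporter genes, 8 genes of monoamine synthesis and breakdown and 11 partners and regulators of the carriers, 0 passed in limma, and 0, 0 and 6 of them had an unadjusted p under 0.05.

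Of 30 genes of the amino acid response, which Atf4 drives when amino acids run short, Sesn2 alone passed. This is 3.33% of the list, against 7.35% of all genes. Sesn2, a leucine sensor and also a p53 target, read 7.07, 7.02 and 7.13 on the Bmi1 arrays and 7.75, 7.78 and 7.84 on the empty vector arrays, a fall of 0.72 on the log2 scale (adjusted p = 0.0031 from limma). The median difference of these 30 genes was -0.03. Among some carrier genes known as targets of Atf4, which are examples and not a full list, Slc1a5 rose. Slc1a4 was higher and Slc3a2 lower on every Bmi1 array without passing, and Slc7a11 and Slc7a5 overlapped between the groups. The amino acid-responsive Slc38a2 overlapped as well. The element bound by C/EBP and ATF factors, TGATGNAA on either strand, was present in 3.97% of all promoter windows and in 5 of the 66 windows of the transporter genes, those of Slc1a4, Slc6a21, Slc7a11 and Slc7a7. The window of Slc7a11, chr3:50443564-50443863 on the minus strand, is printed because it holds 2 copies, marked in capitals, the second read on the opposite strand.
Slc7a11: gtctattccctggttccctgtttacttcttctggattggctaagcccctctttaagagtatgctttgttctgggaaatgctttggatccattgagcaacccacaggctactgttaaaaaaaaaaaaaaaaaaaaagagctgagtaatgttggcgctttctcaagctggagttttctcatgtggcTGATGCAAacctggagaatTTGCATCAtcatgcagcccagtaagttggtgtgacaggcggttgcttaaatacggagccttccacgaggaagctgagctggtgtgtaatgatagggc
None of these matches overlapped one of the other motifs searched, TGACGTCA, found in 1.79% of all windows and in that of Slc38a6, and TGACNNNGC, found in 12.4% of all windows and in 11 windows of 9 transporter genes. A match to these letters is not a measured binding site.

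Of 32 genes that link amino acids to the growth kinase complex mTORC1, 2 rose and 3 fell, or 15.6%. Of the 32, 26 had a mean of 6 or more, a range in which 12.4% of all genes passed. Fnip1, a partner of folliculin, read 4.79, 4.94 and 4.82 on the Bmi1 arrays and 6.47, 6.54 and 6.73 on the empty vector arrays, a fall of 1.73 on the log2 scale, or 3.32-fold (adjusted p = 5.4e-04 from limma). Rptor, the raptor subunit of mTORC1, averaged 6.78 ± 0.09 on the Bmi1 arrays and 7.59 ± 0.09 on the empty vector arrays (SD, n = 3 each), a fall of 0.82 on the log2 scale (adjusted p = 0.0042 from limma), and Sesn2 is the third. The Rag GTPase genes Rragd and Rragb rose by 0.57 and 0.38 (adjusted p = 0.018 and 0.032 from limma). The call of Rragd was lost on omission of any array but empty vector replicate 3 (adjusted p = 0.063 to 0.078) and that of Rragb on omission of any array (adjusted p = 0.065 to 0.12).

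Markers of some other cell types moved with the groups. Against 7.35% of all genes, 62.5% of the oligodendrocyte precursor markers passed, 50% of the neuroblast and neuron markers and 27.3% of the astrocyte markers. Of 8 oligodendrocyte precursor markers 5 rose, and all 8 had differences above 0. The summed linear level of the 8 was 3737 to 3984 on the Bmi1 arrays and 2909 to 3009 on the empty vector arrays. Most of that sum came from Olig1, the brightest of the 8, which did not pass (difference 0.20, adjusted p = 0.19 from limma). Of 12 neuroblast and neuron markers 5 rose and 1 fell, with a sum of 1580.05 to 1671 on the Bmi1 arrays and 1904 to 1933 on the empty vector arrays. That lower sum was set by Map2, which fell, and without it the sum was 464 to 485 on the Bmi1 arrays and 325 to 337 on the empty vector arrays. Of 11 astrocyte markers 3 rose (sum 6836 to 7902 on the Bmi1 arrays and 6578 to 7022 on the empty vector arrays). The difference was above 0 for 7 of the 11 and below 0 for 4. Among the 4 were Aldoc and Slc1a3, lower on every Bmi1 array without passing (differences of -0.28 and -0.31). Markers of meningeal fibroblasts had 2 falls among 9 genes, with a sum of 376 to 393 on the Bmi1 arrays and 588 to 680.3 on the empty vector arrays, and of 7 pericyte markers 1 fell, with a sum of 206 to 230.5 on the Bmi1 arrays and 315 to 368 on the empty vector arrays. Those sums were set by the genes that fell. Without Twist1 and Pcolce the fibroblast sum was 296 to 324 on the Bmi1 arrays and 278 to 292 on the empty vector arrays, and without Notch3 the pericyte sum was 62.4 to 65.8 on the Bmi1 arrays and 61.1 to 62.8 on the empty vector arrays. Of 9 mature oligodendrocyte markers 2 fell (sum 637 to 799.7 on the Bmi1 arrays and 554 to 585 on the empty vector arrays). That higher sum was set by Cnp, the brightest of the 9, which did not pass. Cnp averaged 9.18 on the Bmi1 arrays and 8.73 on the empty vector arrays (adjusted p = 0.090 from limma). Ugt8a and Opalin, the 2 that fell, were dimmer, with differences of -1.53 and -0.78. Ependymal, microglial, endothelial and choroid plexus markers gave no calls from limma, with 1, 0, 1 and 0 of them at an unadjusted p under 0.05. Their median levels lay between 3.11 and 3.82. RMA gives no values of 0, so absence of a marker cannot be read from these levels. The part of these markers in the changes of the transporter genes was not tested.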

How the data were processed

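Neurosphere RNA was hybridised to 6 Affymetrix Mouse Gene ST 1.0 arrays, 3 per group. The authors made the deposited log2 values by RMA in Affymetrix Expression Console, per the submitters' processing notes, with background correction, quantile normalization and a summary over the probes of a set. The sources used here give no versions. RMA pulls differences of dim probe sets toward 0, and with 3 arrays a group the precision is limited.

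The platform annotation named 1 gene for 21789 of 35557 probe sets. All 62 symbols matched the RefSeq gene table. Members and gene lists were chosen with earlier results of these data known.

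Bmi1 and empty vector arrays were compared by two-sided limma tests (version 3.58.1, lmFit and eBayes, run in R 4.3.3) without a filter, and p-values were adjusted by Benjamini-Hochberg over the whole table. Named with values were members past the test with non-overlapping groups, the brightest members of each role, and up to 4 called genes of each other list with the smallest adjusted p. Members close to the threshold, other relatives and partners of members, and the genes Abat, Gldc, Slc1a2 and Slc1a3 were named after their values were seen. The fit was tested on simulated data. Alternatives were the t-test of the methods (a difference of at least 1 and a p under 0.001) and its Welch form, filters on the mean level at 5 and 6, adjustment over single genes, the mean of a gene's probe sets, centring each array on its median, quantile normalization, an intensity trend, weights per array, a replicate block, and omission of every array in turn. Promoters were searched with Python 3.11.15, and figures drawn with matplotlib 3.10.9.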

Additional observations from a re-analysis of the deposited data

How the results depend on the processing

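Among the 9 transporter genes that passed (6 rose, 3 fell), the same 9 passed after median centring and quantile normalization, and 12 genes including these 9 passed with an intensity trend in the variance prior, plain or robust. The methods' t-test called 2 (Slc1a1, which rose, and Slc6a15, which fell), or 6 (1 of them a fall) when its p was adjusted by Benjamini-Hochberg and no minimum difference was set, and its Welch form 0 (0 rose, 0 fell) at either threshold. A mean of at least 5 left 25 genes with 10 rises and 0 falls, and a mean of at least 6 left 20 genes with 0 falls, because Slc6a15, Slc6a4 and Slc7a4 are dim. With 1 probe set per gene 16 passed (12 rose), and with the mean of a gene's probe sets 17 (13 rose). Replicate numbers did not pair the samples (correlations of deviations 3.4e-05, -0.032 and -0.018). With the replicate block 5 transporter genes passed (Slc1a1, Slc1a5, Slc6a6, Slc6a17 and, as the 1 fall, Slc6a15), and Slc6a9 did not. In that fit 850 of all probe sets and 11 of the other genes passed.

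With 1 array left out, 5 to 8 transporter genes passed (4 to 6 rose, 1 to 2 fell), the fewest without empty vector replicate 2, and Slc1a1, Slc1a5, Slc6a6, Slc6a9 and Slc6a15 passed each time. Their median difference was 0.06 to 0.11. Of all probe sets, 974 to 1275 passed then, in place of 2025, and 8 to 15 of the other genes of amino acid transport and metabolism, in place of 17.

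The median difference of the transporter genes, 0.08, was 0.15 and 0.20 with means of at least 5 and 6 and 0.028 after median centring, which moved the median of all probe sets to -0.03, against 0.02 before. All calls split into 794 rises and 1231 falls, and into 593 and 1467 after median centring. All probe sets called were 300 with the methods' t-test, 182 with its Welch form (210 with Benjamini-Hochberg), 3424 and 3193 with means of at least 5 and 6, and 3190 and 3062 with a trend, plain or robust. Of the other genes, 4 passed with the methods' t-test, 2 with its Welch form (3 with Benjamini-Hochberg), 33 and 34 with means of at least 5 and 6, and 29 with 1 probe set per gene, the mean of all, a trend or a robust trend. The causes were not tested.

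Of 51 named genes, 46 kept their sign under every alternative and 5 near 0 did not. Slc38a2 was 0.022 after quantile normalization, Slc36a4 was -0.037 after median centring, and Slc6a12 was -0.016 after median centring and -0.0025 after quantile normalization. With 1 array left out, Slc7a11 ranged from -0.13 to 0.052, Slc38a2 from -0.067 to 0.018, Slc36a4 from -0.015 to 0.052, Slc6a12 from -0.075 to 0.21 and Slc6a13 from -0.00025 to 0.19.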
